A study of Mus musculus with 6 samples.

Results

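The 41 genes examined here encode WNT ligands, their Frizzled and LRP receptors, secreted WNT antagonists and a pair of transcriptional readouts of the pathway. They were listed by symbol (18 ligands, 10 Frizzled receptors, 2 LRP coreceptors, 9 secreted antagonists and 2 readout genes) and all 41 were found among the 43629 genes of the count data. Expression was measured by poly(A) RNA-Seq in primary ventricular cardiomyocytes of CD-1 mouse embryos at embryonic day 13.5, with 3 negative siRNA cultures and 3 DNMT1 siRNA cultures. Both groups received 12 nM siRNA with the same lipid reagent and were collected 72 h after transfection, following a magnetic sort for VCAM1. The ventricles of each litter were pooled before digestion. The control was a commercial non-targeting siRNA, and the DNMT1 reagent was a mixture of 4 siRNAs. The comparison asks how expression of the WNT pathway genes differed when DNMT1, the enzyme that maintains CpG methylation through cell division, was reduced.

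WNT proteins are secreted lipid-modified glycoproteins that bind Frizzled receptors. When a Frizzled and an LRP5 or LRP6 coreceptor are engaged together, β-catenin escapes destruction and acts with TCF/LEF factors on target genes. Other WNT proteins, with WNT5A and WNT11 as the usual examples, signal mainly through β-catenin-independent branches that control calcium and cell polarity, and both branches act at different stages of heart formation. SFRP proteins, FRZB and WIF1 bind WNT proteins outside the cell, whereas DKK1 and DKK2 act on the LRP coreceptors.

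Reads counted on genes ranged from 27852412 to 35896018 in the negative siRNA libraries and from 13739561 to 16186310 in the DNMT1 siRNA libraries. The share of uniquely mapped reads that fell on no gene was 16.4% ± 1.58 in the controls and 29.3% ± 4.23 after DNMT1 siRNA (SD, n = 3 each; two-sided exact permutation p = 0.1, which is the lowest value possible for 3 against 3). Its part in the results below was not tested. Dnmt1 stood at 3446, 2760 and 2878 normalized counts in negative siRNA cultures 1 to 3 and at 772, 786 and 666 in the DNMT1 siRNA cultures, log2FC -2.03 ± 0.11 (SE), FDR 0.000192. Here log2FC is the log2 ratio of DNMT1 siRNA over negative siRNA, and FDR is the Benjamini-Hochberg adjusted p from edgeR. Dnmt3a, the name given in place of DNMT1 by the treatment tag of the knockdown samples, had log2FC 0.24 and FDR 0.0919, and Dnmt3b had log2FC 0.21 and FDR 0.444.

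All 8 cardiomyocyte markers examined were detected in every library. Their summed level per length (RPKM, reads scaled to exon length and library size) was 242 to 308 in negative siRNA and 505 to 646 in DNMT1 siRNA cultures, and 7 of the 8 were up-regulated. By the limits given below, 4.26% of the 15470 genes tested were up-regulated and 2.23% were down-regulated. Genes of fibroblasts and other mesenchyme were more abundant still. The 8 markers of that list summed to 4601 to 7000 RPKM with negative siRNA and 3478 to 3689 with DNMT1 siRNA, led by Col1a1, Col3a1 and Col1a2, and 3 of them were down-regulated. Smooth muscle and pericyte markers summed to 2391 to 3630 and 2032 to 2123 RPKM, with 1 of 7 down-regulated (Pdgfrb). Most of that sum came from Acta2 and Tagln. Without overlap, 3 of the 7 were lower with DNMT1 siRNA and Rgs5 was higher (log2FC 1.10, FDR 0.111). Of all tested genes, 17.7% were lower and 18.3% higher without overlap. Epicardial and mesothelial markers summed to 539 to 624 and 601 to 629 RPKM, with 1 of 7 down-regulated (Krt19). Krt19, Wt1 (log2FC -0.23) and Aldh1a2 (-0.42) were lower without overlap, and Tbx18 (0.17) was higher. Endothelial and endocardial markers summed to 14.4 to 20.8 and 30.1 to 32.9 RPKM, with 3 of 7 up-regulated (Npr3, Kdr and Emcn). Npr3 alone had mean levels of 1.63 and 10.9 RPKM, a large part of the rise in the sum. Pecam1, Cdh5 and Egfl7 overlapped between the groups, and Tek was lower without overlap (log2FC -0.35, FDR 0.0373). Macrophage markers summed to 8.33 to 22.6 and 7.34 to 10.3 RPKM, with 1 of 6 down-regulated (Lyz2) and a median log2FC of -1.10. Lyz2 and Adgre1 were lower without overlap, and the other macrophage markers overlapped. The summed erythroid markers stayed at or below 1.24 RPKM, with Hbb-bt and Hba-a1 at 0 in every negative siRNA library. Vcam1, which encodes the antigen of the sort, had log2FC -0.26 and FDR 0.148. The sums of the fibroblast and smooth muscle lists were highest in negative siRNA replicate 2. Not all members followed, since Dcn, Tcf21, Pdgfrb and Rgs5 had their lowest control value in that replicate. In these bulk samples, fewer cells of a type and less RNA per cell cannot be told apart, and the part of the cell types in the WNT results was not tested.

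Of the 41 genes, 32 passed the filter on low counts. DNMT1 siRNA up-regulated 4 of the 32 (12.5%), the receptors Fzd4, Fzd5 and Fzd6 and the antagonist Sfrp4, and down-regulated 2 (6.25%), the ligand Wnt4 and the antagonist Dkk3. Genes were called when the FDR from edgeR's quasi-likelihood test was below 0.05 and the absolute fold change was above 1.5. By the same limits, 4.26% of the 15470 genes tested were up-regulated and 2.23% were down-regulated, or 6.49% in either direction. The median log2 fold change of the 32 members was 0.04, and that of all tested genes was 0.00 (-0.0049). Without negative siRNA replicate 2, 3 members were up-regulated and 3 down-regulated. By FDR alone, 5 were higher and 2 lower, against 6.81% and 5.65% of all tested genes. In 9 of the 32, every DNMT1 siRNA culture was above every negative siRNA culture, and in 4 every one was below, against 18.3% and 17.7% of all tested genes (36% in either direction).

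**Figure D1:**
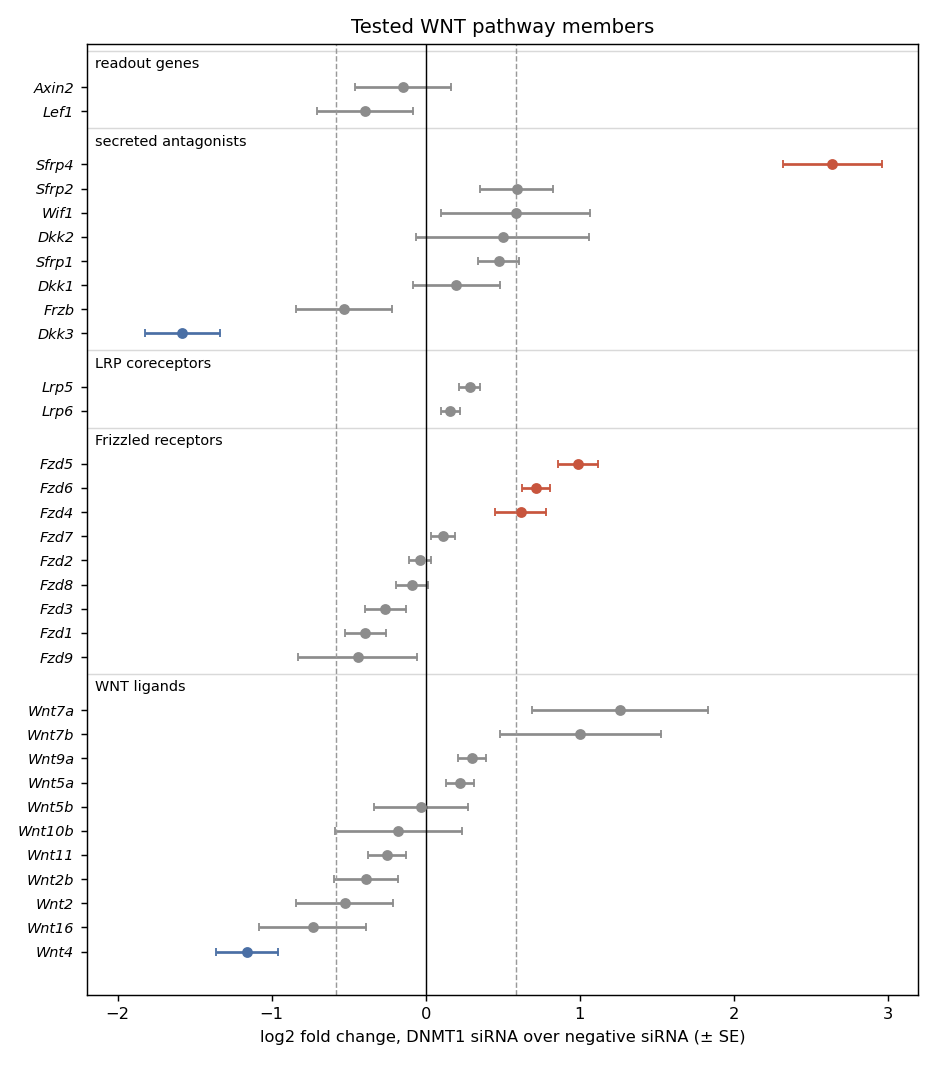
Log2 fold change (x axis, DNMT1 siRNA over negative siRNA, 3 cultures each) of the 32 tested members, grouped by role; bars are standard errors and dashed lines mark the 1.5-fold limit. Sfrp4 stands alone at the right with 2.64, Fzd4, Fzd5 and Fzd6 lie past the limit (red), and Dkk3 and Wnt4 are the lowest (blue).

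The 9 genes that did not pass the filter were Wnt1, Wnt3, Wnt3a, Wnt6, Wnt8a, Wnt9b, Wnt10a, Fzd10 and Sfrp5. They had 0 to 19 reads per library, and 14 of their 54 values were 0. A count of 0 allows up to 3 reads, which is 0.0806 to 0.107 CPM (reads scaled to library size) in the negative siRNA libraries and 0.185 to 0.226 in the DNMT1 siRNA libraries, for counting error only. They were not tested in the main comparison. With no filter on low counts, their FDR values were 0.421 (Wnt3) to 0.984 (Wnt1).

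Because DNMT1 acts on CpG sites, the promoter sequences of the changed genes are shown for their CpG content. RefSeq promoter windows (GRCm38.p6, 250 bases before to 50 after the start site) were matched by symbol for 28 of the 41 genes, among them Fzd4, Fzd5 and Wnt4, and not for Fzd6, Sfrp4 and Dkk3. The bases upstream of both the RefSeq and the GENCODE start are printed 5′ to 3′ on the strand of the gene, with CpG dinucleotides in capitals. Fzd4 lies on the plus strand (chr7:89404116-89404354), Fzd5 on the minus strand (chr1:64737752-64738000) and Wnt4 on the plus strand (chr4:137277385-137277488).
Fzd4: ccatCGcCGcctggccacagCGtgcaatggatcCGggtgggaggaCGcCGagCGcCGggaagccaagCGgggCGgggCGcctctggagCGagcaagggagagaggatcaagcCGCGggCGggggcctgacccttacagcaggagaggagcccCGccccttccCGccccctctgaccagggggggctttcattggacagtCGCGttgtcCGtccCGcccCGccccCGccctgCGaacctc
Fzd5: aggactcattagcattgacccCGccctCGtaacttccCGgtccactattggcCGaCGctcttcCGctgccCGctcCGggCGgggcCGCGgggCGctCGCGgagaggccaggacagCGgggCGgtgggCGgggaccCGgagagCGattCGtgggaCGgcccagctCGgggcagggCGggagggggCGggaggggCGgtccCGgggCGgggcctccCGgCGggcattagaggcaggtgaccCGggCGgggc
Wnt4: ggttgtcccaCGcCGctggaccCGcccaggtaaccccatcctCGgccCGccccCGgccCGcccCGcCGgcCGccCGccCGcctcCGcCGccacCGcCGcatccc
These stretches hold 24, 31 and 16 CpG dinucleotides in 239, 249 and 104 bases. In the whole windows of 300 bases, Fzd4 had 32, Fzd5 38 and Wnt4 51 CpG dinucleotides. Only these 3 called members had a window, and whether CpG content goes with the direction of change was not tested. Over the 28 members the median was 28 and the range 9 (Dkk1) to 58 (Wnt9a). The 18 tested members with a window that did not pass the limits had a median of 24.5, and the 7 untested ones a median of 29. The median of all 32851 windows in the table, which include non-coding genes and several starts per gene, was 7, and 26.5% of them had 20 or more CpG dinucleotides, against 78.6% of the 28 members. Methylation of these promoters was not analysed here. The letters CTTTGAT, a core that TCF/LEF factors bind, or their reverse complement were found in the window of Wnt11 and of no other of the 28 members (3.57%), and in 3.73% of all windows.

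**Figure D2:**
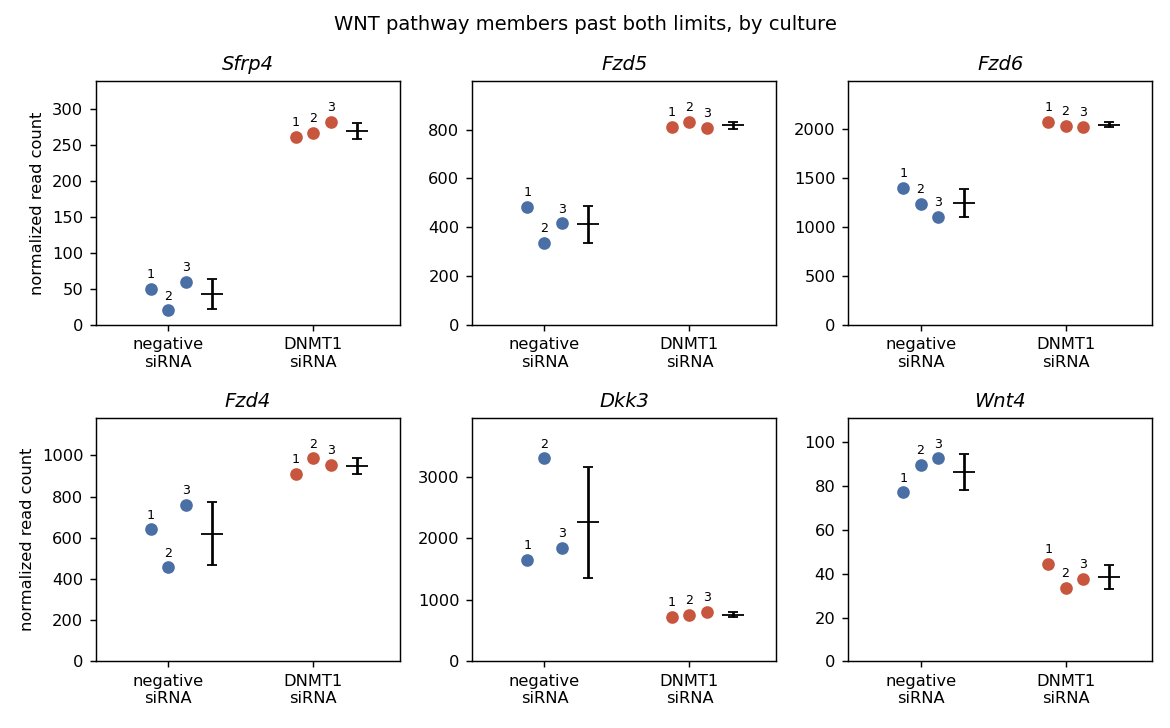
Normalized read counts (y axes, from 0) of the 6 members past both limits, by culture; the numbers are the replicate numbers and the bars are mean ± SD (n = 3). The groups do not overlap in any of the 6 genes, and Dkk3 of negative siRNA replicate 2 lies far above the other two controls.

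Among the ligands, Wnt5a, Wnt9a and Wnt11 dominated in both groups. Per length, Wnt11 stood at 16.1 ± 2.72 and Wnt5a at 14.4 ± 1.14 RPKM with negative siRNA, and Wnt9a at 11.1 ± 0.831 (SD, n = 3). With DNMT1 siRNA, Wnt5a stood at 16.7, Wnt9a at 13.7 and Wnt11 at 13.6 RPKM. The levels of Wnt5a and Wnt11 overlapped in the controls. In the DNMT1 siRNA cultures Wnt5a (15.1 to 18.3 RPKM) was above Wnt11 (12.7 to 14.7 RPKM), and Wnt11 overlapped with Wnt9a. With the length of the longest transcript, Wnt11 was above Wnt9a in this group too, at 16.3 and 13.8 RPKM. Together, the 3 ligands made up 80.0% to 85.6% of the summed ligand level with negative siRNA and 86.5% to 88.3% with DNMT1 siRNA. The summed level of all 18 ligands was 50.0 ± 3.34 and 50.5 ± 1.81 RPKM (SD, n = 3 each), so that the total differed by less than the spread between cultures. The next ligands, Wnt16, Wnt5b and Wnt2b, were at 1.13 to 2.65 RPKM as group means, and Wnt4 and Wnt2 were below 1 RPKM.

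**Figure D3:**
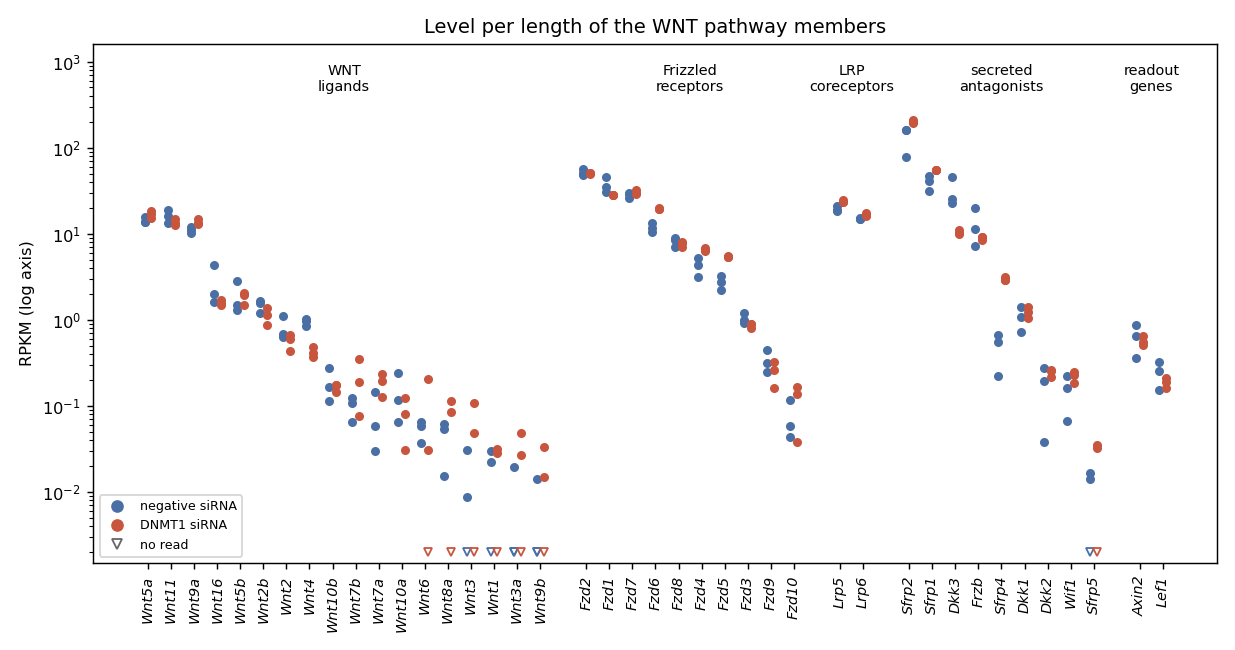
Level per length (RPKM, log axis) of all 41 members in each culture, ordered by mean level within each role; open triangles mark libraries with no read. Sfrp2, Sfrp1 and Fzd2 are the most abundant members, and a group of ligands at the right of the first block is at or near 0.

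Wnt4 (ENSMUSG00000036856, chromosome 4 of GRCm38, 137277489 to 137299726, protein-coding) was the only ligand past the limits. It is a ligand known from kidney and female reproductive tract development. Its normalized counts were 77.0, 89.6 and 92.5 in the controls and 44.3, 33.5 and 37.6 after DNMT1 siRNA. All 3 DNMT1 siRNA cultures were below all 3 controls, and the log2FC was -1.16 ± 0.20 (SE, FDR 0.00974). Without DNMT1 siRNA replicate 2 the FDR was 0.0640, and without replicate 3 it was 0.0514. Wnt4 made up 1.90% ± 0.189 of the summed ligand level in the controls and 0.835% ± 0.0890 after DNMT1 siRNA (SD, n = 3 each).

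The abundant ligands moved little. Wnt5a, at 2302, 2354 and 2660 normalized counts in the controls and 3103, 2567 and 2864 with DNMT1 siRNA, had log2FC 0.22 ± 0.09 (SE), FDR 0.147, and the groups overlapped. For Wnt11, the counts were 1431, 1699 and 1212 against 1195, 1318 and 1142, log2FC -0.25 ± 0.12 (SE), FDR 0.224. Wnt9a, a ligand of the endocardium and atrioventricular cushions, was the single other ligand without overlap. Its counts were 808, 743 and 863 with negative siRNA and 1073, 929 and 973 with DNMT1 siRNA, log2FC 0.30 ± 0.09 (SE), FDR 0.0620, short of both limits. Wnt16 illustrates the spread between controls, with 191, 411 and 151 normalized counts against 162, 141 and 149. Its log2FC was -0.73 (FDR 0.204), and it was -0.18 without negative siRNA replicate 2. The other 6 tested ligands were Wnt2, Wnt2b, Wnt5b, Wnt7a, Wnt7b and Wnt10b, with FDR values of 0.188 to 0.961 and overlapping groups. Wnt7a and Wnt7b had the largest positive values of the ligands, 1.26 (SE 0.57) and 1.00 (SE 0.52), from no more than 23 reads in any library.

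Of the Frizzled receptors, Fzd2, Fzd1 and Fzd7 were the most abundant with negative siRNA, at 51.7 ± 3.95, 36.7 ± 7.69 and 28.0 ± 1.91 RPKM (SD, n = 3). All 3 stayed short of the limits. Fzd2 was at 4109 ± 314 normalized counts in the controls and 4001 ± 76.6 with DNMT1 siRNA (SD, n = 3 each), log2FC -0.04 ± 0.07 (SE), FDR 0.762. Fzd7 had log2FC 0.11 ± 0.08 (SE), FDR 0.367. Fzd1 stood at 3151, 4116 and 2753 normalized counts against 2560, 2541 and 2542, without overlap, and its log2FC was -0.39 ± 0.13 (SE) at an FDR of 0.0929. Fzd3, Fzd8 and Fzd9 had log2 fold changes of -0.26, -0.09 and -0.44, with FDR values of 0.231 to 0.603, and of these Fzd3 was without overlap.

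The 3 receptors that rose were of intermediate level. Fzd5 (ENSMUSG00000045005, chromosome 1, 64730558 to 64737751), a receptor needed for vessel growth in the yolk sac and placenta, had 484, 334 and 415 normalized counts in the controls and 811, 832 and 808 with DNMT1 siRNA. Each DNMT1 siRNA culture was above each control, and the fold change was 1.98 (log2FC 0.99 ± 0.13 SE, FDR 0.00338). Fzd6 (ENSMUSG00000022297, chromosome 15, 39006034 to 39038188), a receptor best known for planar cell polarity in skin and hair follicles, had 1392, 1234 and 1101 against 2070, 2028 and 2018 normalized counts. Its fold change was 1.64 (log2FC 0.71 ± 0.09 SE, FDR 0.00318). Both receptors passed the limits in all 6 fits that each left out 1 library. Exon bases of Fzd5 (17.8%) and Fzd6 (3.15%) are shared with a gene on the other strand, and the strand setting of the counting is not given in the sources used here. The partner genes had 0 to 3 and 14 to 27 reads per library.

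Fzd4 (ENSMUSG00000049791, chromosome 7, 89404355 to 89413134), a receptor of WNT proteins and of norrin in blood vessels, was the closest of the 6 to the limits. Its normalized counts were 641, 456 and 759 with negative siRNA and 909, 985 and 952 with DNMT1 siRNA, without overlap. The log2 fold change was 0.62 ± 0.16 (SE, FDR 0.0449). When single libraries were left out, Fzd4 passed in 1 of 6 fits, the one without negative siRNA replicate 3. Without negative siRNA replicate 1 the FDR was 0.0665, and without DNMT1 siRNA replicates 1, 2 and 3 it was 0.125, 0.167 and 0.149. Without negative siRNA replicate 2 the log2FC was 0.44, below the fold limit.

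Within the Frizzled family, the share of the summed level held by Fzd4, Fzd5 and Fzd6 together was 15.1%, 10.9% and 13.4% in the negative siRNA cultures and 21.2%, 21.4% and 20.7% in the DNMT1 siRNA cultures. The share of Fzd1, Fzd2 and Fzd7 was 78.6% to 82.5% and 72.5% to 73.6%. The summed level of the 10 receptors was 145 ± 11.2 and 149 ± 1.44 RPKM (SD, n = 3 each), a difference within the spread of the controls. These groupings follow the fold changes above and are given as a description.

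For both LRP coreceptors, every DNMT1 siRNA culture was above every control, as for 18.3% of all tested genes. Lrp5, best known for its role in bone, stood at 3938, 4038 and 4397 normalized counts in the controls and 4933, 4960 and 5185 with DNMT1 siRNA. Its log2FC of 0.29 ± 0.07 (SE, FDR 0.0320) passed the FDR limit and not the fold limit. Without DNMT1 siRNA replicate 1, 2 or 3 the FDR of Lrp5 was 0.130, 0.134 and 0.162, and without negative siRNA replicate 1 it was 0.0538. Lrp6 stood at 4412, 4546 and 4403 against 4947, 4769 and 5214, log2FC 0.16 ± 0.06 (SE), FDR 0.137.

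The secreted antagonists held both the largest rise and the largest fall of the 32 tested members. Sfrp4 (ENSMUSG00000021319, chromosome 13, 19623104 to 19632994), which encodes a soluble protein with a Frizzled-like WNT-binding domain, had 50.2, 19.99 and 59.9 normalized counts in the controls and 261, 267 and 283 with DNMT1 siRNA. The lowest DNMT1 siRNA culture was thus far above the highest control. Its fold change was 6.24 (log2FC 2.64 ± 0.32 SE, FDR 0.00264), and the log2 value was 2.30 to 2.92 when 1 library was left out. Per length, Sfrp4 was nevertheless a minor antagonist, with 0.478 ± 0.229 RPKM against 2.98 RPKM, or 0.210% and 1.07% of the summed antagonist level.

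Dkk3 (ENSMUSG00000030772, chromosome 7, 112116017 to 112159057), a divergent Dickkopf member whose action on WNT signaling is less clear than that of DKK1, fell most. Normalized counts were 1647, 3299 and 1838 with negative siRNA and 716, 751 and 800 with DNMT1 siRNA. All DNMT1 siRNA cultures were below the lowest control, a 2.99-fold decrease (log2FC -1.58 ± 0.24 SE, FDR 0.00650). Negative siRNA replicate 2 was the highest control. Without it, the log2FC was -1.21 (FDR 7.76e-05), and Dkk3 passed the limits in all 6 fits that left out 1 library. The share of Dkk3 in the summed antagonist level was 9.30%, 26.0% and 10.6% in the controls and 3.55%, 3.58% and 4.01% with DNMT1 siRNA.

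Per length, Sfrp2 was the most abundant of all 41 genes, and Sfrp1 was the next antagonist by group mean, with 133 ± 47.3 and 39.5 ± 7.80 RPKM in the controls and 200 and 54.9 RPKM after DNMT1 siRNA. For Sfrp2, normalized counts were 7515, 3663 and 7473 against 9242, 9741 and 9092. The groups did not overlap, negative siRNA replicate 2 was well below the other controls, and the log2FC of 0.59 had an SE of 0.24 (FDR 0.142). Without that replicate the value was 0.32 (FDR 0.00739), below the fold limit. Sfrp1 stood at 4420, 3880 and 2956 against 5239, 5202 and 5191, without overlap. Its log2FC was 0.47 ± 0.13 (SE) at an FDR of 0.05001, short of both limits, and it passed both only without negative siRNA replicate 1 (0.61, FDR 0.0150). Together, Sfrp1 and Sfrp2 made up 85.4%, 68.6% and 80.1% of the summed antagonist level in the controls and 91.0% to 91.6% with DNMT1 siRNA.

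Frzb, which encodes another secreted Frizzled-related protein, varied widely between controls. Its normalized counts were 801, 511 and 1419 with negative siRNA and 648, 640 and 602 with DNMT1 siRNA, and the groups overlapped (log2FC -0.53 ± 0.31 SE, FDR 0.302). Frzb passed the limits as down-regulated without negative siRNA replicate 2 (log2 fold change -0.81, FDR 0.0242), while without negative siRNA replicate 3 its log2FC was -0.06. Dkk1, Dkk2 and Wif1 were low, with group means of 7.93 to 65.3 normalized counts, and had FDR values of 0.467 to 0.680 with overlapping groups. The summed antagonist level was 243, 174 and 238 RPKM in the controls and 276, 287 and 274 RPKM with DNMT1 siRNA, of which Sfrp2 took the largest part.

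**Figure D4:**
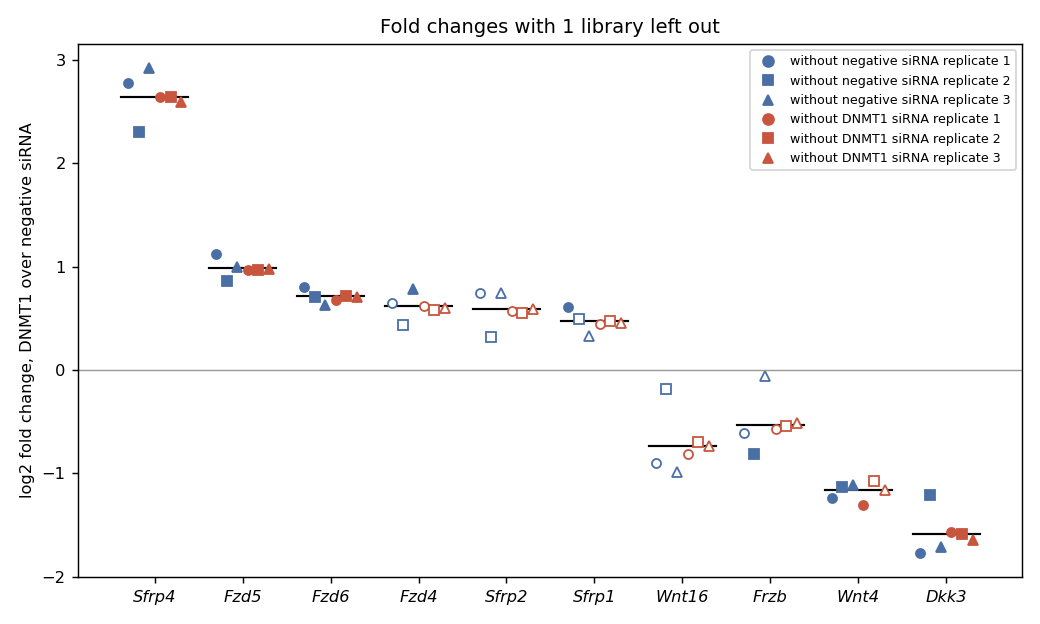
Log2 fold change (y axis) of 10 members when 1 library was left out; black lines are the values with all 6 libraries, and filled symbols mark fits in which the gene passed both limits. Sfrp4, Fzd5, Fzd6 and Dkk3 passed in all 6 fits, Wnt4 in 4, and Fzd4 in 1, while Frzb moved between -0.81 and -0.06.

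The readout genes did not pass the limits. Axin2, a feedback inhibitor induced by β-catenin, had 78.2, 104.8 and 43.6 normalized counts in the controls and 77.8, 61.2 and 65.4 with DNMT1 siRNA, log2FC -0.15 ± 0.31 (SE), FDR 0.786. Its sign turned without negative siRNA replicate 2, to 0.15. Lef1, which encodes one of the TCF/LEF factors, had 49.0, 62.7 and 29.6 against 30.8, 36.4 and 40.9, log2FC -0.39 ± 0.31 (SE), FDR 0.442. Both genes were below 1 RPKM as group means, and the DNMT1 siRNA values lay within the range of the controls in Axin2 and in Lef1.

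The spread between cultures was smaller after DNMT1 siRNA. The SD of log2(CPM + 0.1) was smaller in the DNMT1 siRNA group for 26 of the 32 tested members (81.2%) and for 71.8% of all tested genes. The median SD over the members was 0.37 in the controls and 0.10 after DNMT1 siRNA, while over all tested genes it was 0.17 and 0.10. Fzd1, for example, ranged from 2541 to 2560 normalized counts after DNMT1 siRNA and from 2753 to 4116 in the controls.

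Of 67 other genes of the pathway, 60 were tested, and 4 were up-regulated (6.67%) and 2 down-regulated (3.33%), against 4.26% and 2.23% of all tested genes. Ctnnb1, which encodes β-catenin, was at 13524, 12050 and 12055 normalized counts in the controls and 11265, 10747 and 11079 with DNMT1 siRNA, log2FC -0.19 ± 0.07 (SE), FDR 0.135. In the list of the destruction complex, Dishevelled and β-catenin, the median log2FC was -0.18 and edgeR called 0 of 9 genes, as did DESeq2 and edgeR's exact test. By FDR alone, 2 of the 9 were lower (Csnk1a1, FDR 0.0237, and Gsk3a, FDR 0.0481), against 5.65% of all tested genes. In 5 of the 9, every DNMT1 siRNA culture was below every control, against 17.7% of all tested genes. Sost, an inhibitor of the LRP coreceptors, rose from 17.5, 8.96 and 36.6 to 77.8, 67.0 and 58.9 normalized counts (log2FC 1.71 ± 0.44 SE, FDR 0.0400). Nkd2, an antagonist of Dishevelled, fell from 530, 604 and 813 to 260, 294 and 289 (log2FC -1.20 ± 0.16 SE, FDR 0.00359). It was the only one of 5 general target and feedback genes past the limits. In that list, Nkd2 and Myc (log2FC -0.16, FDR 0.252) were lower without overlap. Sp5 (0.83, FDR 0.106) and Ccnd1 (0.47, FDR 0.0650) were higher without overlap, and Nkd1 overlapped. Vangl2, a core planar cell polarity protein, fell from 540, 712 and 660 to 354, 396 and 350 (log2FC -0.80 ± 0.12 SE, FDR 0.00624). It was the one gene of 9 in the planar cell polarity list past the limits, where DESeq2 called 2. In the WNT/calcium list, 2 of 9 genes were up-regulated, against 4.26% of all tested genes, and DESeq2 and edgeR's exact test each called 4. Over all genes, DESeq2 called 646 up-regulated and 495 down-regulated of 15464 tested. The exact test called 838 and 461 of 15470, against 659 and 345 in the main comparison. Camk2b, a calcium/calmodulin-dependent kinase subunit, had log2FC 1.22 ± 0.14 (SE), FDR 0.00199, and Plcb1, a phospholipase C, one of 0.65 ± 0.17 (SE, FDR 0.0402). With negative siRNA they stood at 0.572 and 0.457 RPKM, against 15.5 for Camk2g and 13.2 for Plcb3 (log2FC -0.29 and -0.02, overlapping groups). Of the 9 genes, 4 were higher without overlap and 1, Camk2d, was lower (log2FC -0.15), against 18.3% and 17.7% of all tested genes. Tle2, a Groucho corepressor, had log2FC 0.66 (SE 0.14, FDR 0.0241) and was the only one of 11 nuclear factors past the limits. Of the 11, 4 were higher without overlap and 3 were lower. The 6 genes past the limits came from 5 of the 9 lists. The lists of WNT secretion, of R-spondins with their receptors and ligases, and of alternative WNT receptors had median log2FC values of -0.14, 0.03 and -0.15.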

How the data were processed

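Poly(A) RNA-Seq libraries from 3 negative siRNA and 3 DNMT1 siRNA cultures were sequenced together in 1 single-end run. Per the labels and the study's methods, reads were quality-checked (FastQC), aligned to mm10 (TopHat2) and assigned to Ensembl genes of GRCm38 (HTSeq). The values deposited by the authors are these raw counts, not normalized. Tool versions and the strand setting are not given in the sources used here. The last 5 lines of each file are HTSeq totals. They were kept out of the library sizes, and reads on no gene were 14.6% to 32.0% of uniquely mapped reads. Groups were taken from the sample titles, since the knockdown samples carry DNMT3a in their treatment tag. The labels do not say how cultures of a group relate to litters, so p values measure the spread between these samples.

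The counts were tested with edgeR 4.0.16 in R 4.3.3 (TMM normalization, filterByExpr with minimum count 10 and minimum total count 15, quasi-likelihood F test, no block), with Benjamini-Hochberg adjustment over 15470 genes. A call required FDR below 0.05 together with a change of more than 1.5-fold either way. The SE was taken as the size of log2FC over the root of the F statistic. Normalized counts are scaled to the geometric mean effective library size, and RPKM values use the union of exons of GENCODE M21 (GRCm38), which holds 42462 of the 43629 genes. All 156 listed genes were matched by symbol. The script was tested on simulated data. Members and lists were chosen with earlier results of these data known. All 41 members are given, with full statistics for called members and for the most abundant member of each role, and of the other pathway genes those past the limits and Ctnnb1. Genes named beyond these were chosen after their values were seen. Alternatives were RLE normalization, other filters, DESeq2 1.42.0, edgeR's exact test, no fold limit, a replicate block and leaving out each library. Python 3.11.15 with scipy 1.17.1 and pandas 2.3.3 was used for summaries.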

Additional observations from a re-analysis of the deposited data

Results flagged for a closer look

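Reads that matched more than 1 gene, which enter no comparison of gene counts, made up 6.15% ± 0.175 of the uniquely mapped reads in the DNMT1 siRNA libraries and 3.62% ± 0.0340 in the negative siRNA libraries (SD, n = 3 each), without overlap between the groups. This was singled out because it is a signal outside the gene counts that lies above its level in the control samples. Among the WNT genes, 8 share exon bases with a gene on the other strand, of which Fzd5 and Fzd6 passed the limits. The partner of Lef1 is not among the counted genes. Sfrp2, the most abundant member, shares 16.1% of its exon bases. The part of reads that matched more than 1 gene in the results was not tested.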

How the results depend on the processing

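Up-regulated WNT genes numbered 3 to 5 in all 13 alternatives, and Dnmt1 stayed past the limits in each, with log2 fold changes of -2.09 to -1.93. Down-regulated WNT genes numbered 2 or 3 except without DNMT1 siRNA replicate 2 or 3, where 1 was left (range 1 to 3 when 1 library was left out). Over all genes, the up-regulated count of 659 became 255 to 823 when 1 library was left out, and the down-regulated count of 345 became 112 to 472, the lowest values being those without a DNMT1 siRNA library. With no filter on low counts the numbers were 994 and 701, and with no limit on fold change 1054 and 874. The cause was not tested for the filter, and the other setting drops a limit. The replicate block gave 513 up-regulated and 285 down-regulated genes, 3 up-regulated and 2 down-regulated WNT genes, and an adjusted p of 0.0557 for Fzd4. Correlations of deviations from the group means were -0.02 to 0.03 for the 3 same-numbered pairs and -0.08 to 0.07 for the other 6, so the numbers were not taken as pairing cultures. Of the 32 tested WNT genes, 28 had 1 sign in every fit that tested them, and Wnt5b, Fzd2, Dkk1 and Axin2 did not. Wnt16 passed the limits with no filter, and Frzb and Sfrp1 each when 1 control was left out. The DNMT1 siRNA libraries held 2.09 times fewer reads on genes (ratio of medians). The part of this depth in the precision for low genes was not tested.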
